A study of Mus musculus with 3 samples.

Results

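Interferon-induced genes were followed through the cell classes of unwounded mouse skin and of skin wounds at day 2 and day 7. The 35 genes were taken as a list of known interferon targets with the interferon gene Ifnb1 among them, and they were listed by name, with no threshold on a measured value. The gene tables held 34 of the 35 among 27998 genes. Mx2 had no row and was not analysed here. By role, the genes were 18 antiviral effectors, 5 genes of transcription factors and feedback, 3 sensors of viral RNA, 2 guanylate-binding proteins, 2 chemokines, 3 genes of antigen processing and 1 ligand. A narrower antiviral core of 14 genes (Ifit1, Ifit2, Ifit3, Isg15, Rsad2, Oasl1, Oasl2, Oas2, Oas3, Mx1, Irf7, Usp18, Rtp4 and Ifi44) served as a summed level.

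The study profiled single cells of dorsal skin from male C57BL/6 mice aged 7 to 9 weeks, wounded while their follicles rested (telogen). Each wounded mouse carried a full-thickness wound of 1.0 by 0.5 cm on either side of the back. The 3 groups were non-lesional skin, wounds at post-wounding day 2 and wounds at day 7, with no genetic change or drug in any of them, and each group was 1 library of droplet 3′ RNA counts. The labels do not say how many mice went into a library. Since a group was a single library, differences between groups could not be tested. All intervals below are exact 95% intervals of the counts, and they cover counting error only, not the spread between animals. Where a count was 0, the limit given is 3 counts of the total. A unique molecular identifier (UMI) marks 1 captured RNA molecule. Levels are CPM, the UMIs of a gene over all UMIs of a class in a library, scaled to 1e6 UMIs, and 3′ counting needs no division by gene length.

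Type I interferons such as interferon-beta, the product of Ifnb1, are released when a cell senses foreign or misplaced nucleic acid. They bind a receptor on the same or a neighbouring cell, and the kinases Jak1 and Tyk2 then activate Stat2, which joins Irf9 in a factor that binds the interferon-stimulated response element (ISRE) of target promoters. Interferon-gamma, made chiefly by lymphocytes, acts through the gamma-activated site (GAS), and Irf1 is a direct target of that arm. The targets block viruses, amplify the signal (Irf7, Irf9, Stat2), damp it (Usp18), draw lymphocytes (Cxcl9, Cxcl10) and adapt the proteasome for antigen display (Psmb8, Psmb9, with the peptide pump Tap1). In injured skin, plasmacytoid dendritic cells are known as a source of type I interferon.

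The promoters of 5 genes on which the results below turn are shown as 150 bases each in the strand of the gene, from position -150 to -1 before the start and for Cxcl10 from -213 to -64. RefSeq (GRCm38.p6) held a promoter of 250 bases before to 50 after the start for 28 of the 34 genes. Capitals mark the core of the ISRE, GAAA, any 2 bases and GAAA again, on either strand, with overlapping matches merged, and in Irf1 the GAS core TTCNNNGAA.
Rsad2, chr12:26456453-26456602, minus strand: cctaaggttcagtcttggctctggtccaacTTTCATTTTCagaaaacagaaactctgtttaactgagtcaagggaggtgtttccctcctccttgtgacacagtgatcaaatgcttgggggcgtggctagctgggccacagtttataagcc
Isg15, chr4:156200819-156200968, minus strand: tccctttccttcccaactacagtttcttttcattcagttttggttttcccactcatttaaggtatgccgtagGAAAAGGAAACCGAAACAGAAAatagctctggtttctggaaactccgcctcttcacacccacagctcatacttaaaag
Ifit1, chr19:34640739-34640888, plus strand: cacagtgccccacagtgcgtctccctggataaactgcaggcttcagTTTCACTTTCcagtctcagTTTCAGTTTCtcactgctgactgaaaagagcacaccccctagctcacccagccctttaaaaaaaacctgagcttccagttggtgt
Cxcl10, chr5:92348953-92349102, minus strand: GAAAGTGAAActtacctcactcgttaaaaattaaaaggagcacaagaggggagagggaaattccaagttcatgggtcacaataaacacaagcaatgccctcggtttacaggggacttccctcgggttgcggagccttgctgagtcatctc
Irf1, chr11:53769864-53770013, plus strand: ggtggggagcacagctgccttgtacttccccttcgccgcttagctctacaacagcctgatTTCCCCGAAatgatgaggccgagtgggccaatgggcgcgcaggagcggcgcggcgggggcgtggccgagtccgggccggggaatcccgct

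The ISRE core lay in a promoter of 13 of the 28 genes (46.4%), against 3.99% of the 27025 genes with a promoter entry (3.44% of all 32851 promoters). Those 13 were Ifit1, Ifit3, Isg15, Rsad2, Oas3, Stat2, Ifih1, Ddx58, Bst2, Ifitm3, Gbp2, Gbp3 and Cxcl10. The GAS core lay in a promoter of 6 of the 28 (21.4%), namely Irf1, Psmb8, Ifit2, Ifi35, Bst2 and Ifitm3, against 9.55% of genes (8.3% of promoters). A gene with several promoters counted once. Bst2 and Ifitm3 held both, and Ifnb1 held neither. A match describes letters in this window and is not evidence of binding. Mx1, Usp18, Dhx58, Oas2, Rtp4 and Ifi27l2a had no promoter entry.

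The libraries held 10857, 8707 and 7317 barcodes and 123088680, 138046172 and 102345327 UMIs in the order non-lesional, day 2, day 7, and 9449, 7440 and 4930 cells were kept. The matrices shared 14 to 24 cell barcodes between pairs of libraries. Cells were clustered without the 34 genes, and 32 of 35 clusters were named from fixed markers, none of them as plasmacytoid dendritic-like. Classes with at least 50 cells in both libraries of a pair were compared, which gave 17 pairs. Fibroblast-like cells numbered 6480, 4158 and 2425, macrophage-like cells (monocytes included) 71, 355 and 317, dendritic-like cells 100, 553 and 335, and lymphoid-like cells (T, NK or innate lymphoid) 434, 179 and 683. Neutrophil-like cells numbered 6, 2039 and 178. The summed level of the 11 macrophage markers in the macrophage-like class was 22090 CPM in non-lesional skin, 2054 at day 2 and 7200 at day 7, with none of the 11 at 0. The marker level of the class thus differed widely between libraries. Free RNA from one class can enter droplets of another, and its possible share of a level was computed from the source class's own genes, as the highest share among 3 such genes, so it is an upper figure. A gene was called higher or lower when its log2 fold, with 5 CPM added to both levels, passed 2-fold, and it needed at least 10 UMIs in the pair.

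In the whole libraries the antiviral core stood at 93.0 CPM in non-lesional skin, 190 CPM at day 2 and 260 CPM at day 7. All 34 genes together stood at 1986, 2486 and 2199 CPM. The core was thus higher in both wound libraries, while the whole list differed by less. Macrophage-like cells held 9.09% of the library's UMIs of Rsad2 (viperin, an enzyme that blocks viral replication) in non-lesional skin, 55.6% at day 2 and 80.3% at day 7. For Isg15, a ubiquitin-like protein attached to other proteins, the share was 6.40%, 21.9% and 33.4%. Fibroblast-like cells kept most of the UMIs of Cxcl10, with 91.9%, 86.4% and 77.0%, and most of those of Cxcl9, with 98.1%, 92.0% and 94.1%. At day 2 fibroblast-like cells held the larger share of Isg15, with 53.2%, and about as much of Ifit1 as macrophage-like cells (39.1% and 38.6%). Fibroblast-like cells also held most UMIs of all genes. They had 63509427 of the 109037711 kept UMIs in non-lesional skin, 114213385 of 121885005 at day 2 and 70089232 of 91014384 at day 7. At day 2 their shares of Cxcl10, Cxcl9, Isg15 and Ifit1 lay below their share of all UMIs. At day 7 the Cxcl10 share was about equal to it and the Cxcl9 share above it, and in non-lesional skin both were above it. Most wound UMIs of Rsad2 thus lay in the small macrophage-like class, which did not hold for all effectors. The chemokine shares are to be read beside the size of the fibroblast-like class.

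Relative to all UMIs, the antiviral core was highest in macrophage-like cells in each library among classes of at least 50 cells. It stood there at 1557 CPM (1422 to 1702) in non-lesional skin, 8695 (8494 to 8900) at day 2 and 4634 (4553 to 4717) at day 7. Without the highest gene of each library these levels were 1268, 4121 and 2036 CPM. In dendritic-like cells the core level was 178 (148 to 212), 1483 (1434 to 1534) and 991 (952 to 1031) CPM. Neutrophil-like cells stood at 761 CPM (724 to 799) at day 2 and 1330 (1187 to 1486) at day 7. In fibroblast-like cells the core was lower in the wounds, with 132 CPM (129 to 135) in non-lesional skin, 93.3 at day 2 and 88.4 at day 7. After each cell was thinned to 1000 UMIs, cells with at least 3 core genes made up 12.5%, 46.1% and 43.2% of macrophage-like cells, 2.04%, 10.9% and 6.15% of dendritic-like cells, and under 1% of fibroblast-like cells in each library.

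**Figure D1:**
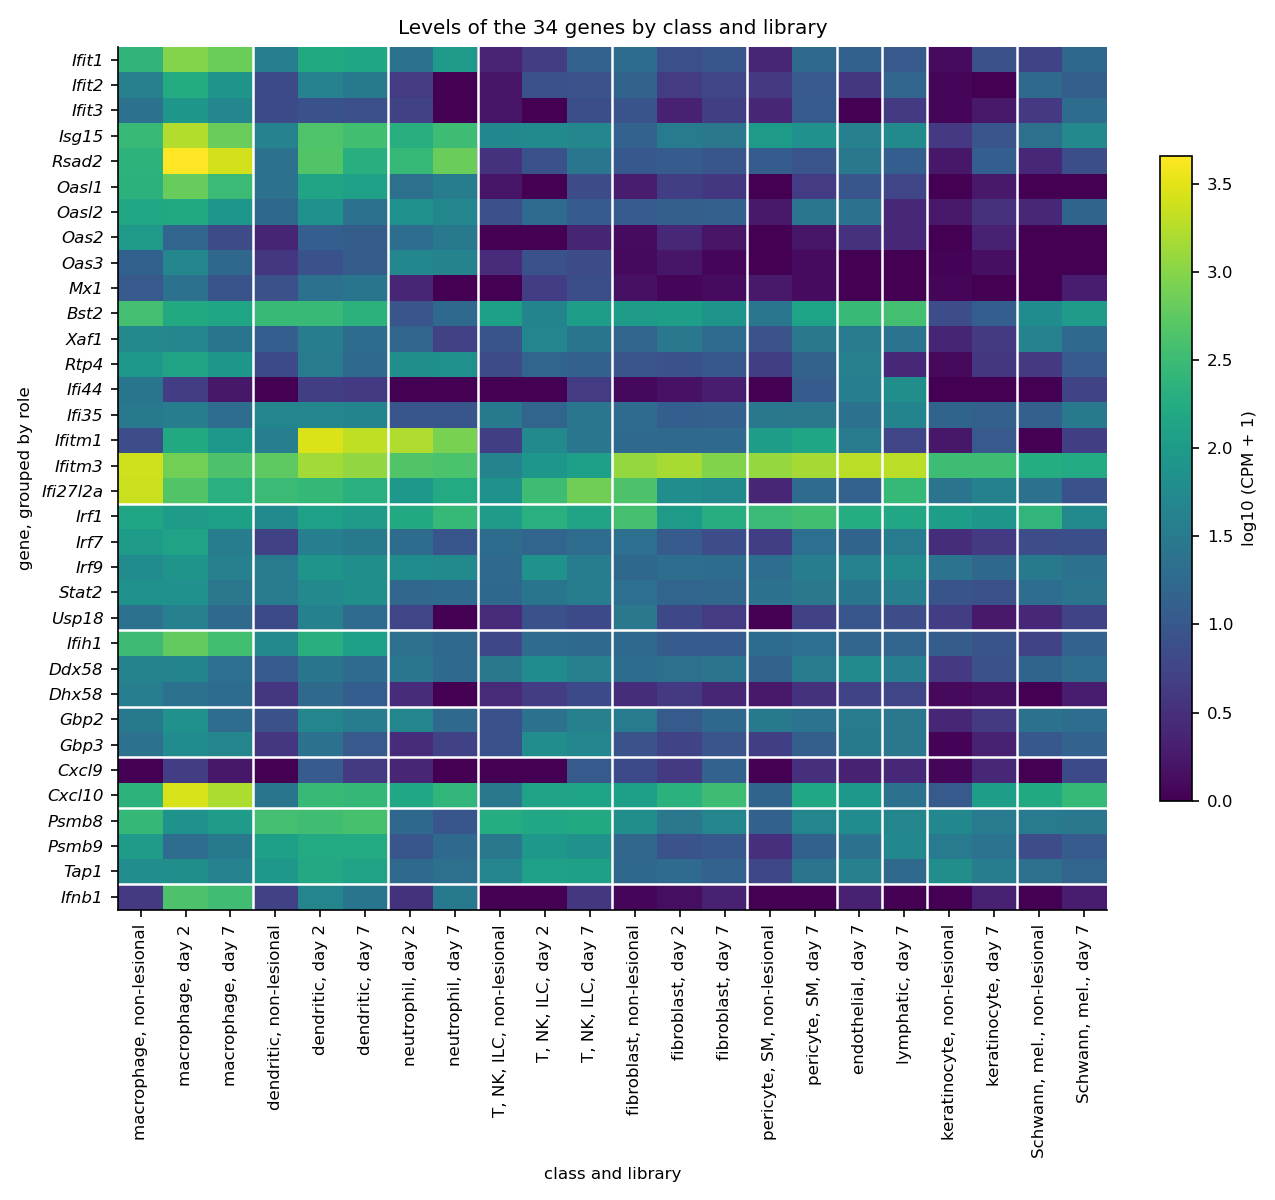
Levels of the 34 interferon-induced genes as log10(CPM + 1), genes in rows by role and classes by library in columns, with yellow for the highest levels and dark purple for 0. The macrophage-like columns of both wound libraries are the brightest for Rsad2, Cxcl10, Isg15 and Ifnb1, while Ifitm3 is high in nearly all columns and lowest in lymphoid-like cells.

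The ligand gene Ifnb1 (chr4:88522025-88522774, minus strand, GRCm38) was almost absent from non-lesional skin and present in both wounds. It had 11 UMIs in the non-lesional library, of which 7 lay in fibroblast-like, 3 in dendritic-like and 1 in macrophage-like cells. At day 2 it had 509 UMIs, of which 355 (69.7%) were in macrophage-like and 107 (21%) in dendritic-like cells. At day 7 it had 1072, of which 908 (84.7%) were in macrophage-like and 62 in dendritic-like cells. Macrophage-like cells were the main source in both wounds.

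In macrophage-like cells the level of Ifnb1 was 3.21 CPM in non-lesional skin, 435 (391 to 482) at day 2 and 340 (318 to 363) at day 7. The ratio to non-lesional skin was 135 (24.1 to 5364) at day 2 and 106 (19.0 to 4187) at day 7, and it rests on a single non-lesional UMI. Macrophage-like cells with an Ifnb1 UMI were 1 of 71, 89 of 355 (25.1%, 20.7 to 29.9) and 137 of 317 (43.2%, 37.7 to 48.9). Thinned to 1000 UMIs, the shares at day 2 and day 7 were 19.3% (14.8 to 24.6) and 28.2% (23.2 to 33.8). In lymphoid-like cells, taken as a class that should lack the gene, Ifnb1 was seen in 0 of 179 cells at day 2, which allows a share of up to 1.68%, and in 6 of 683 (0.878%) at day 7. Median depth was 1845 and 5890 UMIs per macrophage-like cell and 1169 and 2302 per lymphoid-like cell. A minority of wound macrophage-like cells thus carried Ifnb1 UMIs, at a higher share than lymphoid-like cells, whose depth was lower. The UMIs were unevenly spread, with up to 23 in 1 cell at day 2 and 58 at day 7.

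Dendritic-like cells had Ifnb1 at 4.28, 45.8 and 25.2 CPM, 10.7-fold (3.57 to 52.8) higher at day 2 than in non-lesional skin. At day 2 the top 6 dendritic-like cells held 62.6% of these UMIs. Free macrophage RNA could bring up to 0.736% of the macrophage-like level at day 2 and 2.28% at day 7. The day 7 level of dendritic-like cells may thus be free RNA in part. In neutrophil-like cells the level was 2.39 CPM at day 2 and 29.6 at day 7, from 5 and 7 UMIs, and free macrophage RNA could bring 1.91 to 12.5 CPM of the day 2 level over the 3 source genes and up to 5.75 of the day 7 level. Fibroblast-like cells stood at 0.110, 0.368 and 1.14 CPM. Free macrophage RNA, scaled by the macrophage markers found in fibroblast-like cells, would bring 0.279 to 0.468 CPM at day 2 and 0.430 to 0.651 at day 7 over the 3 source genes, a range that holds the day 2 value and lies below the day 7 value.

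Interferon-gamma (Ifng) ran the other way. It stood at 234, 94.7 and 70.8 CPM in lymphoid-like cells (378, 26 and 149 UMIs), which held 93.8%, 68.4% and 80.1% of the library's Ifng. The level was 2.47-fold (1.66 to 3.83) lower at day 2 and 3.30-fold (2.72 to 4.01) lower at day 7 than in non-lesional skin. The highest non-lesional level, 690 CPM, was in the lymphoid-like cluster led by Gzmc and Xcl1. That cluster held 110 of the 434 non-lesional cells but 1 of 179 at day 2 and 7 of 683 at day 7, so different clusters are compared. Of other classes, keratinocyte-like cells of non-lesional skin had 22 Ifng UMIs, fibroblast-like cells at day 7 had 20, and dendritic-like cells at day 7 had 17, of which 16 were in 1 cell.

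In macrophage-like cells at day 2, 12 of 33 genes were higher and 7 were lower than in non-lesional skin. Over all 7571 genes tested there, 13.8% were higher and 20.1% lower. The median log2 fold was 0.41 for the 33 and -0.18 for all genes, and 10 of the 33 had under 10 UMIs in at least 1 library. At day 7 the counts were 6 higher and 9 lower of 33, with 14.8% and 11.6% over all genes and medians of -0.47 and 0.06. Again 10 of the 33 had under 10 UMIs in at least 1 library. The higher genes at day 2 were Ifit1, Ifit2, Ifit3, Isg15, Rsad2, Oasl1, Oas3, Ifitm1, Gbp2, Gbp3, Cxcl10 and Ifnb1, and the lower were Oas2, Bst2, Ifi44, Ifitm3, Ifi27l2a, Psmb8 and Psmb9. At day 7 Ifit1, Isg15, Rsad2, Ifitm1, Cxcl10 and Ifnb1 were higher, and Irf7 and Stat2 joined the 7 lower genes. With scaling by trimmed mean of M-values (TMM) the day 7 counts were 9 higher and 9 lower.

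Antiviral effectors and the chemokine Cxcl10 led the higher side. Rsad2 stood at 231 CPM (181 to 291) in non-lesional, 4574 (4428 to 4723) in day 2 and 2598 (2537 to 2660) in day 7 macrophage-like cells. It was 19.8-fold (15.7 to 25.3) higher at day 2 and 11.2-fold (8.91 to 14.4) at day 7, the highest level of any of the 34 genes in that class in either wound. Macrophage-like cells with a Rsad2 UMI made up 28.2%, 72.4% and 82.0%, or 15.6%, 69.5% and 66.0% after thinning. Isg15 stood at 289 (232 to 355), 1720 (1631 to 1812) and 657 (626 to 688) CPM, 5.95-fold (4.81 to 7.45) and 2.27-fold (1.84 to 2.84) higher. Its level was highest at day 2 and lowest in non-lesional skin, where 1 of the 71 cells held 30% of its UMIs.

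Ifit1, which binds viral RNA caps, stood at 244 (192 to 306), 943 (878 to 1012) and 696 (665 to 729) CPM, with a ratio of 2.85 (2.27 to 3.64) at day 7. Its relatives Ifit2, at 38.5, 175 and 78.6 CPM, and Ifit3, at 22.5, 84.5 and 47.9 CPM, followed the same order at lower levels, and Ifit2 was 4.55-fold (2.52 to 9.01) higher at day 2. The top 4 of the 355 day 2 cells held 51.75% of the Ifit2 UMIs. Ifit3 has a near-identical neighbour, Ifit3b, between which reads may be split. The membrane protein Ifitm1 stood at 6.42, 164 and 89.5 CPM, a ratio of 25.6 (6.94 to 213) at day 2 and 13.9 (3.82 to 116) at day 7 over 2 non-lesional UMIs. All 4 genes were highest at day 2.

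Cxcl10 (CXCL10, a ligand of the lymphocyte receptor Cxcr3) stood at 231 (181 to 291), 2764 (2651 to 2880) and 1637 (1589 to 1686) CPM in macrophage-like cells. It was 11.9-fold (9.45 to 15.3) higher at day 2 and 7.08-fold (5.61 to 9.07) at day 7. In non-lesional skin 1 of the 71 cells held 30.6% of its UMIs. Cxcl9, the related chemokine known as a target of interferon-gamma, had 0, 3 and 2 UMIs in these cells. The chemokine pair thus differed within the class, with Cxcl10 among its most abundant genes of the list and Cxcl9 near 0.

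**Figure D2:**
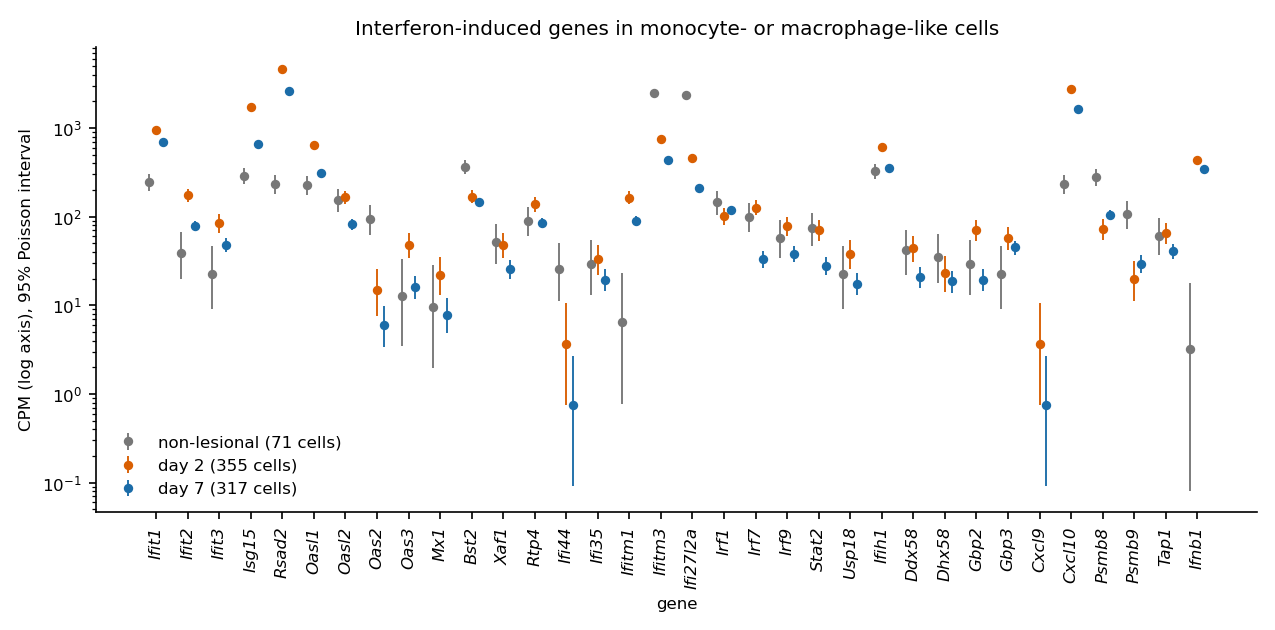
Level of each of the 34 genes in macrophage-like cells in CPM on a log axis, with 1 point per library and bars for the exact 95% Poisson interval, and with no point where a gene had no UMI. Rsad2, Cxcl10, Isg15 and Ifnb1 are highest at day 2 and lowest in non-lesional skin, while Ifi27l2a and Ifitm3 run from 2344 and 2501 CPM in non-lesional skin down to 212 and 435 at day 7.

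Other effectors were lower in wound macrophage-like cells. Ifi27l2a, a small mitochondrial membrane protein, stood at 2344 (2177 to 2520), 463 (418 to 512) and 212 (194 to 230) CPM, 5.06-fold (4.46 to 5.75) lower at day 2 and 11.1-fold (9.91 to 12.4) at day 7. Ifitm3, which restricts virus entry at endosomes, stood at 2501 (2329 to 2683), 758 (700 to 820) and 435 (410 to 461) CPM, 3.30-fold (2.96 to 3.67) and 5.75-fold (5.24 to 6.30) lower. Free fibroblast RNA could bring 178 of the 758 CPM at day 2 and 73.1 of the 435 at day 7. Both genes were highest in non-lesional skin and lowest at day 7.

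Oas2, which makes the messenger that activates RNase L, stood at 93.1, 14.7 and 5.99 CPM, 6.33-fold (3.13 to 13.6) and 15.5-fold (8.17 to 30.6) lower. Ifi44 stood at 25.7, 3.67 and 0.749 CPM from 8, 3 and 2 UMIs, with ratios of 6.99 (1.68 to 40.9) and 34.3 (6.84 to 332). Bst2 (tetherin, which holds budding viruses at the cell surface) stood at 366 (302 to 440), 168 (141 to 198) and 145 (130 to 160) CPM. These 3 genes had their highest class level in non-lesional skin, against the order of Rsad2 and Isg15. With only the cluster shared with the wounds, treated below, this held for Oas2 but not for Bst2 or Ifi44. Of the other effectors, Oasl1 stood at 225, 642 and 309 CPM, Oasl2 at 154, 165 and 81.6 CPM, Oas3 at 12.8, 47.8 and 16.1 CPM, Rtp4 at 89.9, 138 and 85.0 CPM, Xaf1 at 51.4, 47.8 and 25.5 CPM, Ifi35 at 28.9, 33.1 and 19.5 CPM, and Mx1 at 9.63, 22.1 and 7.86 CPM. Mx1 is defective in C57BL/6 and most other inbred strains, and it had 42, 90 and 118 UMIs in the 3 whole libraries.

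None of the 5 transcription factor and feedback genes and none of the 3 RNA sensors passed 2-fold in macrophage-like cells at day 2. Irf7, the factor that amplifies interferon production, stood at 99.5, 126 and 33.0 CPM, 3.02-fold (1.94 to 4.6) lower at day 7 than in non-lesional skin and 3.83-fold (2.85 to 5.15) lower than at day 2. Stat2 stood at 73.9, 69.8 and 27.7 CPM, Irf9 at 57.8, 78.4 and 38.2 CPM, Usp18, which removes Isg15 from proteins, at 22.5, 38.0 and 17.6 CPM, and Irf1 at 144, 102 and 118 CPM. Ifih1 (MDA5) stood at 324, 605 and 354 CPM, Ddx58 (RIG-I) at 41.7, 44.1 and 20.6 CPM and Dhx58 (LGP2) at 35.3, 23.3 and 18.7 CPM. The factors other than Irf1 were thus at their lowest at day 7, while Rsad2 and Cxcl10 were still above their non-lesional levels.

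Guanylate-binding and antigen-processing genes separated in these cells. Gbp2 stood at 28.9, 69.8 and 19.5 CPM and Gbp3 at 22.5, 57.6 and 44.9 CPM, both higher at day 2. Psmb8 stood at 276, 72.3 and 105 CPM, 3.82-fold (2.71 to 5.42) lower at day 2, and Psmb9 at 106, 19.6 and 29.6 CPM, 5.41-fold (2.89 to 10.5) and 3.58-fold (2.31 to 5.44) lower. Tap1 stood at 61.0, 64.9 and 40.8 CPM. Both immunoproteasome subunits were lowest at day 2.

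Between the wounds, 9 of 32 genes were lower at day 7 than at day 2 in macrophage-like cells and none higher, against 3.19% lower and 10.4% higher over all genes, with medians of -0.80 and 0.21. With the 34 genes kept in the clustering 4 of the 9 calls were kept, and after thinning to 1000 UMIs 2 of the 9, with 30 genes tested. The 9 were Ifit2, Isg15, Oasl1, Oas3, Mx1, Ifi27l2a, Irf7, Stat2 and Gbp2. Isg15 was 2.62-fold (2.44 to 2.81) lower, Gbp2 3.59-fold (2.42 to 5.33), Oas3 2.97-fold (1.87 to 4.69), Stat2 2.52-fold (1.75 to 3.61) and Ifi27l2a 2.19-fold (1.92 to 2.50). Summed fibroblast markers in the class were 1535, 2738 and 5058 CPM and neutrophil markers 254, 930 and 466 CPM, and their part in these differences was not tested beyond the free RNA values given.

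The non-lesional macrophage-like cells were of 2 kinds, which bears on every comparison with them. Of the 71, 45 formed a cluster found only in non-lesional skin and led by Retnla and C1qa. The other 26 lay in the cluster that held all wound macrophage-like cells, led by Pf4, Lyz2 and Arg1. The 26 cells had less Ifi27l2a than the 45 (915 against 2993 CPM), less Rsad2 (61.7 against 308), less Irf7 (20.6 against 135), less Bst2 (123 against 476) and less Oas2 (51.4 against 112), but more Cxcl10 (432 against 140) and more Ifitm3 (2899 against 2321). With the shared cluster alone, a choice made after the values were seen, 11 genes were higher and 5 lower at day 7, Irf7 then stood on the higher side at a log2 fold of 0.57, and 3 genes rather than 7 were lower at day 2. Against the 26 cells the log2 fold at day 2 was -0.97 for Ifi27l2a, which no longer passed 2-fold, -1.93 for Ifitm3 and 6.10 for Rsad2. For Isg15 it was 2.05 at day 2 and 0.67 at day 7, so the day 7 call was not kept. For Psmb9 it was -0.06 at day 2 and 0.44 at day 7, so neither lower call was kept. For Ifi44 it was 0.79 at day 2 and 0.20 at day 7. The Bst2 level of the 26 cells lay below both wound levels. The lower calls of Ifi44 and Bst2 were thus not kept either.

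Macrophage-like cells that carried an Ifnb1 UMI differed from those that did not, in a split made after the values were seen and with a deeper median in the positive cells. At day 2, 89 positive cells had a median of 2799 UMIs and 266 negative cells 1558. At day 7, 137 positive cells had 6112 and 180 negative cells 5738. Rsad2 stood at 8355 CPM in positive and 2528 in negative cells at day 2 (3.31-fold, 3.09 to 3.54) and at 4811 and 1178 at day 7 (4.08-fold, 3.87 to 4.31). Ifit1 stood at 1961 and 393 CPM at day 2 (4.99-fold, 4.25 to 5.88) and at 1351 and 276 at day 7 (4.89-fold, 4.4 to 5.45). The largest ratios were those of Ifit2, 12.8 (7.80 to 22.4) and 8.36 (5.74 to 12.5), and of Ifit3, 12.3 (6.08 to 28.2) and 10.9 (6.43 to 19.7). These 2 genes were concentrated in few cells. The top 4 macrophage-like cells held 51.75% of the Ifit2 and 46.4% of the Ifit3 UMIs at day 2, and 22.9% and 23.4% at day 7. Positive cells were higher for each of these genes in both wounds.

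Cxcl10 was 2.59-fold (2.38 to 2.82) and 4.05-fold (3.79 to 4.33) higher in Ifnb1-positive cells, and Isg15 2.04-fold (1.83 to 2.26) at day 2 and 3.31-fold at day 7. In contrast, Irf1 had ratios of 0.891 (0.541 to 1.43) and 1.07 (0.852 to 1.35), Irf7 of 1.22 (0.803 to 1.84) and 1.24, and at day 7 Psmb8 of 0.915, Bst2 of 0.907 and Psmb9 of 0.721. Thinned to equal depth, the ratios were 5.10 and 4.14 for Ifit1, 3.08 and 3.56 for Rsad2, 2.57 and 2.61 for Cxcl10 and 2.00 and 2.81 for Isg15. The positive cells were therefore high in Ifit1, Rsad2, Cxcl10 and Isg15 with all UMIs and at equal depth. Ifit2 and Ifit3 are given with all UMIs only, and Irf1 did not differ beyond its counting interval. Cells of 1 library are not replicates, and these ratios describe each library only.

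**Figure D3:**
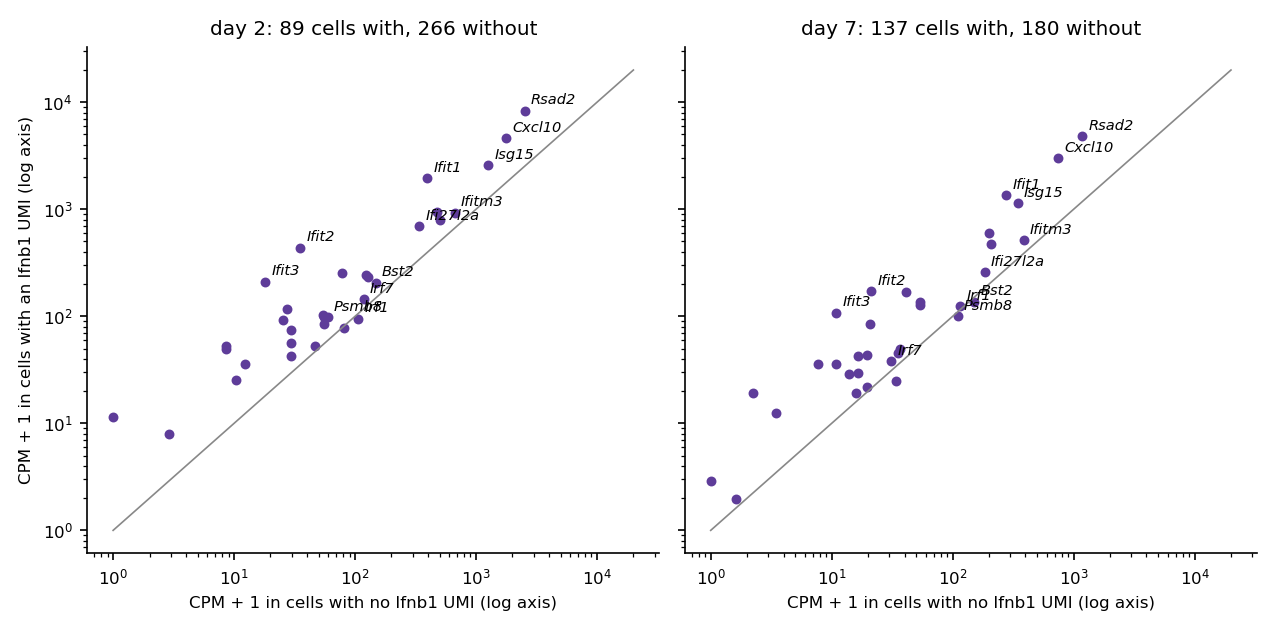
Levels in CPM of the genes in macrophage-like cells without (horizontal) and with (vertical) an Ifnb1 UMI, both on log axes, with 1 panel for day 2 and 1 for day 7 and the diagonal marking equal levels. Ifit1, Ifit2, Ifit3, Rsad2 and Cxcl10 lie above the diagonal in both panels and Irf1 lies near it.

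Dendritic-like cells carried the broadest set of higher genes. At day 2, 24 of 33 genes were higher than in non-lesional skin and none lower, against 14.2% higher and 6.22% lower over all genes tested, with a median log2 fold of 1.52 against 0.17. At day 7, 18 of 32 were higher and none lower, against 11.3% and 3.83%, with medians of 1.03 and 0.12. However, 15 of the 33 and 14 of the 32 had under 10 UMIs in at least 1 library of the pair. These shares are therefore descriptions of the genes that could be tested. The tested genes that did not pass at day 2 were Ifit3, Oas3, Bst2, Ifi35, Ifi27l2a, Stat2, Psmb8, Psmb9 and Tap1. At day 7 the genes that passed were Ifit1, Ifit2, Isg15, Rsad2, Oasl1, Oas2, Oas3, Mx1, Rtp4, Ifitm1, Ifitm3, Irf7, Usp18, Ifih1, Dhx58, Gbp2, Cxcl10 and Ifnb1. With classes assigned cell by cell the day 2 count was 10 higher and 2 lower.

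Ifitm1 (chr7:140967221-140969825, plus strand) showed the widest step of the 34 genes in dendritic-like cells, from 35.6 CPM in non-lesional skin to 2885 (2817 to 2955) at day 2 and 2024 at day 7. It was 81.0-fold (54.8 to 125) and 56.8-fold (38.4 to 87.8) higher. Free neutrophil RNA could account for 18 of the 2885 CPM. In the dendritic-like cluster led by H2-Ab1 and Cd74 (98, 386 and 232 cells) Ifitm1 stood at 34.2, 3795 and 2705 CPM. In the cluster of mature cells led by Ccl22 and Ccr7 (2, 167 and 103 cells) it stood at 605 and 378 CPM in the wounds. Both clusters were high in the wounds, and the former was the higher. Ifitm3 stood at 560, 1435 and 1157 CPM in the whole class, and it was thus higher in wound dendritic-like cells but lower in wound macrophage-like cells.

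Rsad2 stood at 22.8, 467 and 200 CPM in dendritic-like cells, 20.5-fold (12.5 to 35.9) and 8.76-fold (5.34 to 15.4) higher. Free macrophage RNA could bring 7.21% of the day 2 level and 29.6% of the day 7 level, and the top 6 cells held 40.2% of the day 2 UMIs. Isg15 stood at 41.4, 444 and 354 CPM (10.7-fold, 7.43 to 16.1, and 8.56-fold, 5.91 to 12.8). Cxcl10 stood at 25.7, 302 and 272 CPM (11.8-fold, 7.39 to 19.97, and 10.6-fold, 6.66 to 18). Each of the 3 was lowest in non-lesional skin and highest at day 2.

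Oasl1, which restrains translation of Irf7, stood at 22.8, 136 and 124 CPM in dendritic-like cells (5.97-fold, 3.62 to 10.6, and 5.42-fold, 3.29 to 9.61). Ifit1 stood at 37.1, 166 and 140 CPM, Ifit2 at 5.70, 41.1 and 29.3, Ifit3 at 5.70, 7.28 and 6.92, Oasl2 at 15.7, 71.5 and 23.2, and Mx1 at 7.13, 21.8 and 25.2 CPM. Irf7 stood at 4.28, 36.8 and 29.3 CPM, 6.85-fold (2.25 to 34) higher at day 7 over 3 non-lesional UMIs. Irf1 stood at 55.6, 125 and 103 CPM, Irf9 at 32.8, 76.7 and 64.7, Usp18 at 5.70, 39.8 and 18.3, Ifih1 at 51.3, 196 and 116, and Gbp2 at 7.13, 46.7 and 33.8 CPM. All 6 passed 2-fold at day 2, and all but Irf1 and Irf9 did so at day 7, whereas in macrophage-like cells Irf7, Irf1, Irf9, Usp18 and Ifih1 passed it at day 2 in neither direction.

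Genes of antigen processing and some effectors did not pass 2-fold in dendritic-like cells. Psmb8 stood at 366, 343 and 394 CPM, Psmb9 at 116, 172 and 174, Tap1 at 88.4, 159 and 127, Bst2 at 305, 290 and 221, and Ifi27l2a at 316, 269 and 209 CPM. In the Ccl22 and Ccr7 cluster Psmb8 was 524 CPM at day 2 and 700 at day 7, and Irf1 263 and 210. Between the wounds, 2 of 34 genes were lower at day 7 than at day 2 and none higher, against 1.28% and 3.21% of all genes. They were Rsad2, 2.33-fold (2.10 to 2.60) lower, and Oasl2, 3.08-fold (2.27 to 4.24) lower. Neutrophil markers summed to 1.43, 915 and 28.5 CPM and macrophage markers to 3271, 328 and 489 CPM in the class.

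Fibroblast-like cells, the largest class, had more lower than higher genes. At day 2 none of 34 was higher and 8 were lower, against 11.0% and 6.32% of all genes, with a median log2 fold of -0.01 against 0.05. At day 7, 1 was higher and 3 were lower, against 7.96% and 4.19%, with medians of -0.10 and 0.12. TMM or median-of-ratios scaling gave 1 higher and 7 lower at day 7. The lower genes at day 2 were Ifit1, Ifit2, Ifit3, Ifi27l2a, Irf1, Usp18, Gbp2 and Psmb8. Summed fibroblast markers were 149600, 32070 and 77420 CPM in the class, and the clusters were mostly of 1 library each.

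Ifi27l2a (chr12:103442167-103443680, minus strand) stood at 440 CPM (435 to 445) in non-lesional, 61.2 (59.8 to 62.6) in day 2 and 54.5 (52.8 to 56.2) in day 7 fibroblast-like cells. It was 7.19-fold (7.01 to 7.39) and 8.08-fold (7.81 to 8.36) lower in the wounds, where both levels were close to each other. Its neighbour Ifi27l2b is a near-identical copy, so reads may be split. Within non-lesional skin the level was 1456 CPM in the cluster of 1669 cells led by Smpd3 and Pi16 and 887 CPM in that of 1118 cells led by Myoc, but 5.0 CPM in that of 2135 cells led by Cdh4 and Gal. At day 2 the clusters led by Cxcl14 and Saa3 and by Thbd and Csf3 stood at 84.2 and 37.0 CPM. At day 7 the cluster led by Prss35 and Tnn stood at 15.6 CPM and that led by Dlk1 and Mgp at 180 CPM. The non-lesional level thus came from a part of the fibroblast clusters, and no large wound cluster reached it.

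**Figure D4:**
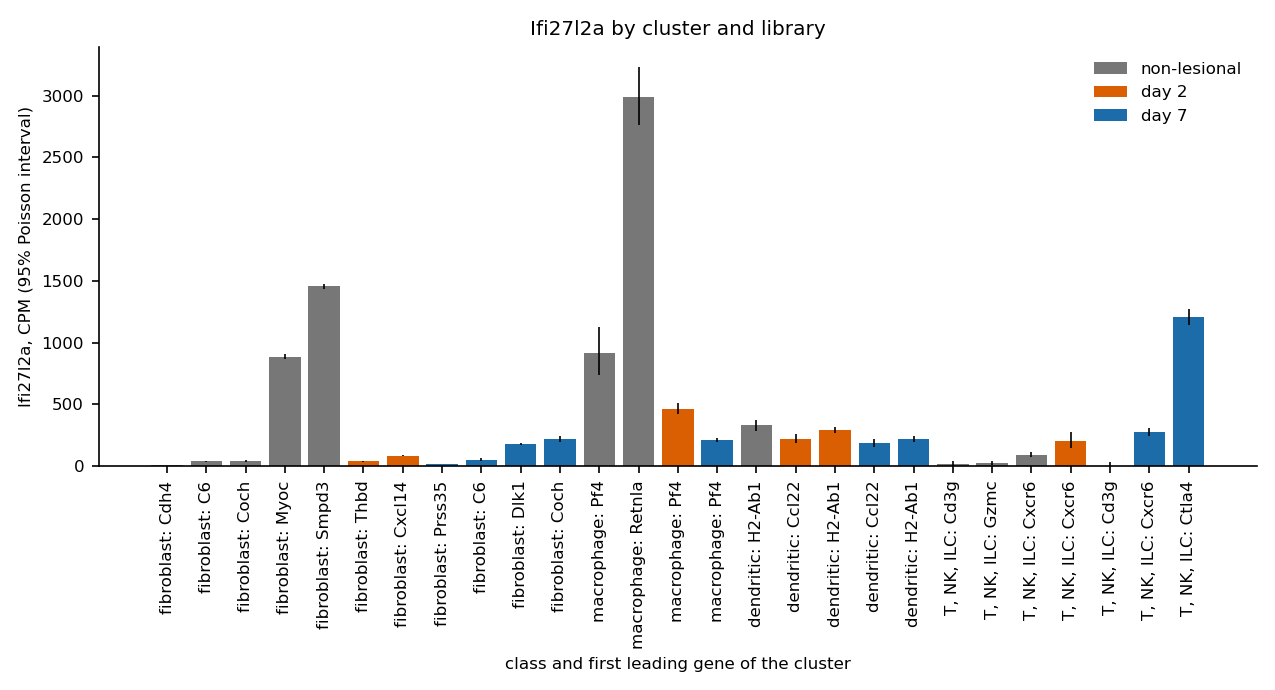
Level of Ifi27l2a in CPM by cluster and library, bars from 0, for clusters with at least 50 cells in a library and for both kinds of non-lesional macrophage-like cells. The lymphoid-like cluster led by Ctla4 and Foxp3 appears for day 7 only because it held 29 and 37 cells in the other libraries, and its bar reaches 1206 CPM, near the 1456 CPM of the non-lesional fibroblast-like cluster led by Smpd3 and Pi16.

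Irf1 stood at 374, 96.3 and 188 CPM in fibroblast-like cells, 3.88-fold (3.80 to 3.97) lower at day 2. Usp18 stood at 27.6, 5.17 and 3.27 CPM, 5.34-fold (4.86 to 5.87) and 8.46-fold (7.37 to 9.75) lower. Irf7 stood at 20.8, 10.3 and 6.28 CPM, 3.31-fold (2.97 to 3.70) lower at day 7. These 3 regulators were highest in non-lesional skin. Gbp2 stood at 31.3, 9.98 and 16.1 CPM (3.14-fold, 2.91 to 3.38, lower at day 2) and Psmb8 at 63.9, 27.6 and 44.6 CPM (2.32-fold, 2.21 to 2.43, lower). Ifit1 stood at 18.9, 6.84 and 8.66 CPM, Ifit2 at 13.6, 3.49 and 4.75, and Ifit3 at 7.84, 1.14 and 3.75 CPM. In non-lesional skin 65 cells, 1% of the class, held 69.2% of the Ifit1 UMIs, against 6.20% of those of Irf1.

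The chemokine Cxcl10 was the only gene called higher in fibroblast-like cells against non-lesional skin, with 115, 214 and 335 CPM and a ratio of 2.90 (2.83 to 2.98) at day 7. The cluster led by Dlk1 and Mgp had the highest day 7 level, 793 CPM, and the cluster led by Prss35 and Tnn had 229 CPM. Free macrophage RNA could bring 1.39% of the day 2 and 0.937% of the day 7 level. Cxcl9 stood at 5.56, 3.24 and 13.2 CPM and was 4.08-fold higher at day 7 than at day 2, the only gene of 34 called between the wounds, where 2.85% of all genes were higher and 1.62% lower. In non-lesional skin 217 of its 353 UMIs lay in 1 cell, and at day 7 the top 25 cells held 45.9%. Cxcl9 was thus concentrated in few cells.

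Isg15 stood at 13.3, 29.9 and 26.9 CPM in fibroblast-like cells, Ifitm3 at 1205, 1497 and 939 CPM, Bst2 at 105, 112 and 76.4 CPM and Rsad2 at 9.35, 10.5 and 8.5 CPM. None of these was called with 5 CPM added, although the plain level of Isg15 was more than 2-fold higher in both wounds. Free macrophage RNA could bring 46.9% of the day 2 and 58.5% of the day 7 level of Rsad2.

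In lymphoid-like cells 10 of 21 genes were higher and 1 lower at day 2 than in non-lesional skin, against 16.1% and 10.2% of all genes, with medians of 0.99 and 0.22. Of the 21 genes, 8 were tested through 1 library only. TMM scaling gave 7 higher and 2 lower. At day 7, 16 of 31 were higher and none lower, against 14.1% and 3.79%, with medians of 1.05 and 0.32, and 12 of the 31 were tested through 1 library only. Xaf1, Ifitm1, Ifi27l2a, Ifih1, Gbp2, Gbp3, Cxcl10, Psmb9 and Tap1 were higher in both wounds, Irf9 at day 2, and Ifit1, Ifit2, Ifit3, Rsad2, Mx1, Ifitm3 and Cxcl9 at day 7. Between the wounds, 7 of 31 were higher at day 7 (Ifit1, Ifit3, Rsad2, Oasl1, Bst2, Cxcl9 and Ifi27l2a) and none lower, against 10.1% and 3.06%, with 17 tested through 1 library.

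Ifi27l2a led, at 72.3 CPM in non-lesional, 335 in day 2 and 734 in day 7 lymphoid-like cells. It was 4.63-fold (3.49 to 6.14) higher at day 2 and 10.2-fold (8.41 to 12.4) at day 7, the reverse of its order in fibroblast-like and macrophage-like cells. Free macrophage RNA could bring 4.62% of the day 2 level and free fibroblast RNA 1.28% of the day 7 level. At day 7 the cluster led by Ctla4 and Foxp3, genes of regulatory T cells, stood at 1206 CPM in 271 cells and the cluster led by Cxcr6 and Icos at 274 CPM. In the latter cluster the levels were 89.0 CPM in non-lesional skin and 200.5 CPM at day 2, so the order also held there. Whether the Foxp3 cluster was named depended on a threshold set after the clusters were seen, and it held 29, 37 and 271 cells.

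Gbp3 stood at 7.41, 61.9 and 48.0 CPM in lymphoid-like cells (8.35-fold, 3.76 to 19.2, and 6.48-fold, 3.55 to 12.9) and Gbp2 at 7.41, 21.8 and 38.0 CPM (5.13-fold, 2.78 to 10.3, at day 7). Ifitm1 stood at 3.71, 54.6 and 26.1 CPM, Xaf1 at 8.03, 47.3 and 25.2 CPM and Irf9 at 17.3, 72.8 and 34.7 CPM, with ratios at day 2 of 14.7 (5.40 to 46.4), 5.89 (2.52 to 13.8) and 4.21 (2.25 to 7.75). Guanylate-binding genes were thus higher in both wounds, as Gbp2 was in dendritic-like cells. Psmb9 stood at 28.4, 87.4 and 71.3 CPM and Tap1 at 45.7, 124 and 119 CPM, while Psmb8 stood at 182, 149 and 166 CPM and did not pass 2-fold.

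Several lymphoid-like values overlapped what free RNA could bring. Cxcl10 stood at 27.8, 127 and 130 CPM (4.58-fold, 2.86 to 7.29, and 4.67-fold, 3.40 to 6.55). Free macrophage RNA could bring up to 72.4% of the day 2 level of Cxcl10 and free fibroblast RNA 30.2% to 44.6% of the day 7 level. Ifitm3 stood at 42.6, 83.7 and 116 CPM, and free fibroblast RNA could bring 51.7 to 160 CPM at day 2 and 110 to 162 CPM at day 7 over the 3 source genes, so no difference is read from it. Isg15 stood at 50.6, 54.6 and 49.0 CPM, and free macrophage RNA could bring from none to the whole of the day 2 level. Rsad2 stood at 2.47, 7.28 and 26.6 CPM, of which free macrophage RNA could bring 16.4% to 64.9% at day 7. Its ratio of day 7 to day 2, 3.66, had an interval of 0.966 to 30.9 that includes 1.

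Bst2 stood at 118, 43.7 and 111 CPM in lymphoid-like cells, 2.70-fold (1.51 to 5.32) lower at day 2 from 12 UMIs. Irf1 stood at 104, 211 and 137 CPM and Irf7 at 18.5, 14.6 and 19.0 CPM. Ifit3 had 1, 0 and 14 UMIs and Cxcl9 0, 0 and 21. Irf1 was thus highest at day 2, but with 5 CPM added it was not called higher there, and a relation to the Ifng level was not tested.

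**Figure D5:**
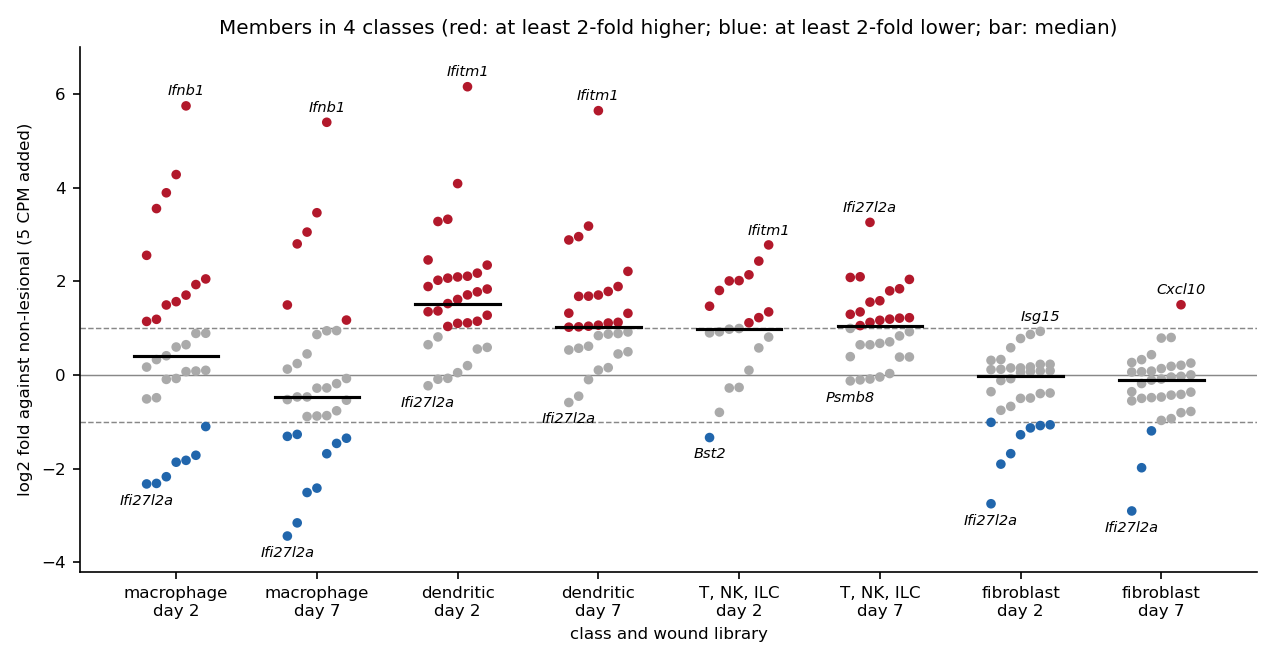
Log2 folds (with 5 CPM added) of the genes in fibroblast-like, macrophage-like, dendritic-like and lymphoid-like cells, day 2 and day 7 against non-lesional skin, 1 point per gene tested with a bar at the median. The dendritic-like medians of 1.52 and 1.03 and the lymphoid-like medians of 0.99 and 1.05 lie above 0, the fibroblast-like medians lie near 0, and the macrophage-like points spread widely on both sides.

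Neutrophil-like cells could be compared between the wounds only. At day 7, 3 of 27 genes were higher and 3 lower than at day 2, against 7.33% and 10.6% of all genes, with medians of 0.05 and 0.04, and 15 of the 27 were tested through 1 library. Ifit1, Rsad2 and Ifnb1 were the higher and Xaf1, Ifitm1 and Gbp2 the lower genes. TMM scaling gave 2 higher and 5 lower. Ifitm1 stood at 1671 CPM at day 2 and 830 at day 7 (2.01-fold, 1.74 to 2.34, lower), and Gbp2 at 46.9 and 16.9 CPM (2.77-fold, 1.05 to 10.4, lower). Rsad2 stood at 278 and 674 CPM (2.42-fold, 2.02 to 2.89, higher), but 2 cells held 74.2% of the day 7 UMIs, and free macrophage RNA could bring 7.22% to 47.4% of the day 2 level. Ifit1 stood at 22.02 and 93.2 CPM (4.23-fold, 2.42 to 7.18, higher), and free macrophage RNA could bring 4.14 to 27.15 CPM at day 2 over the 3 source genes. With the 34 genes kept in the clustering, no gene was higher in neutrophil-like cells at day 7.

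Most other genes of the list stayed within 2-fold between the neutrophil-like cells of the wounds. Isg15 stood at 204 and 335 CPM, Cxcl10 at 156 and 258, Irf1 at 166 and 280, and Ifitm3 at 461 and 415 CPM. Irf7 (18.7 and 8.47 CPM), Bst2 (8.14 and 16.9 CPM) and Psmb8 (15.8 and 8.47 CPM) were low, as was Ifit3 with 9 and 0 UMIs. Free fibroblast RNA could bring 105 to 255 CPM of the Ifitm3 level at day 2 and 89.2 to 163 at day 7. Of the Ifitm1 level it could bring up to 0.179% and 0.351%. For Isg15 and Cxcl10, free fibroblast RNA could bring up to 17.0% of the fibroblast-like level at day 2 and 17.4% at day 7. Free macrophage RNA could bring up to 2.88% and 1.69% of the macrophage-like level. These are shares of the source level, and at day 2 the macrophage-like levels of both genes were many times the neutrophil-like ones. Both levels may thus hold free RNA, and for Cxcl10 at day 2 it may be a large part. Ifitm1 had the highest level of the list's effectors in these cells at both days.

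In pericyte-like cells (smooth muscle included) 13 of 28 genes were higher and none lower at day 7 than in non-lesional skin, against 17.2% and 8.64% of all genes, with medians of 0.94 and 0.29, and 13 of the 28 were tested through 1 library. The higher genes were Ifit1, Ifit3, Oasl2, Bst2, Xaf1, Rtp4, Ifi44, Ifi27l2a, Irf7, Cxcl10, Psmb8, Psmb9 and Tap1. Without doublet removal 8 of the 13 calls were kept, and after thinning 2, with 11 genes tested. Non-lesional cells lay mostly in the cluster led by Sorbs2 and Sparcl1 (221 cells) and day 7 cells in that led by Rgs5, Higd1b and Notch3 (175 cells), so different cells are compared. Cxcl10 stood at 14.3 and 156 CPM (10.9-fold, 6.93 to 18.3), of which free fibroblast RNA could bring 43.9% at day 7. Bst2 stood at 26.3 and 130 CPM (4.94-fold, 3.5 to 7.18), Psmb8 at 12.8 and 47.6 (3.72-fold, 2.25 to 6.55), Tap1 at 5.26 and 24.6 (4.66-fold, 2.17 to 12.0) and Irf7 at 3.76 and 20.96 CPM (5.57-fold, 2.28 to 17.7). Oasl2 had a ratio of 34.6 (6.06 to 1384) over 1 non-lesional UMI. All 3 genes of antigen processing were higher there, and Irf1 stood at 310 and 358 CPM, Ifitm3 at 1213 and 1446, Isg15 at 96.3 and 71.0 and Ifit3 at 1.5 and 9.88 CPM.

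Endothelial-like cells could be described at day 7 only, where 143 cells had Ifitm3 at 1912 CPM, Bst2 at 302, Irf1 at 182, Psmb8 at 57.5, Isg15 at 38.1, Ifi44 at 36.4 and Irf7 at 14.2 CPM. The 50 lymphatic endothelial-like cells had Ifitm3 at 1887, Bst2 at 369, Irf1 at 158, Ifi44 at 64.4, Isg15 at 53.1, Psmb8 at 46.7 and Irf7 at 30.6 CPM. At day 7 the order of Bst2 levels ran from lymphatic (369) and endothelial-like (302) through dendritic-like cells (221) to macrophage-like cells (145), and the intervals of the lymphatic and endothelial-like levels overlapped. Cxcl10 was 88.2 CPM in endothelial-like cells, of which free fibroblast RNA could bring 49.4%, and 22.5 CPM in lymphatic cells. Ifnb1 had 2 UMIs in the former and none in the latter.

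In keratinocyte-like cells 4 of 23 genes (Ifit1, Rsad2, Ifitm1 and Cxcl10) were higher at day 7 and none lower, against 4.79% and 4.04% of all genes, with medians of 0.33 and 0.03. Of the 23 genes, 6 were tested through 1 library only. Cxcl10 stood at 10.02 and 109 CPM (10.9-fold, 9.24 to 12.8), of which free fibroblast RNA could bring 15.7% at day 7. With the 34 genes kept in the clustering, which left 95 instead of 96 day 7 cells, 1 of the 4 calls was kept, and after thinning also 1, with 11 genes tested. The cluster led by Lhx2 held 43 of the 96 day 7 cells and 72 of the 1537 non-lesional cells. In the order non-lesional and day 7, markers of other types in the class summed to 14.2 and 639 CPM for neutrophils, 1739 and 3353 CPM for fibroblasts and 46.1 and 1754 CPM for erythroid cells. The part of these cells and of the cluster in the Cxcl10 value was not tested. The class was among the lowest for Isg15 (3.07 and 8.20 CPM), Bst2 (6.31 and 11.3) and Irf7 (2.02 and 3.12). Irf1 stood at 113 and 85.9, Psmb8 at 49.6 and 32.8 and Ifitm3 at 331 and 328 CPM, which was not the lowest. The antiviral core stood at 11.2 and 38.6 CPM, below that of the other named classes of at least 50 cells. At day 7 Cxcl10 stood above that summed level. The Rsad2 level may hold free macrophage RNA, of which up to 0.224% of the source level could enter at day 7.

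Schwann-like cells (melanocytes included) had 4 genes higher and 3 lower of 23 at day 7, against 14.7% and 10.8% of all genes, with medians of 0.33 and 0.16, while TMM scaling gave 3 and 3 and median-of-ratios scaling 2 and 3. Of the 23 genes, 11 were tested through 1 library only. The higher genes were Ifit1, Ifit3, Isg15 and Oasl2 and the lower Irf1, Xaf1 and Ifi27l2a. Irf1 stood at 258 and 54.6 CPM (4.73-fold, 3.49 to 6.48, lower), as it was lower in fibroblast-like cells at day 2. Isg15 stood at 21.8 and 51.8 CPM (2.38-fold, 1.31 to 4.63, higher) and Xaf1 at 40.5 and 16.7 CPM (2.43-fold, 1.28 to 4.70, lower). Ifi27l2a stood at 23.3 and 7.40 CPM (3.15-fold, 1.25 to 8.58, lower). Cxcl10 stood at 168 and 278 CPM, Bst2 at 59.1 and 101, Ifitm3 at 184 and 171, Psmb8 at 31.1 and 28.7 and Irf7 at 6.22 and 6.48 CPM. Ifit3 was seen in 2 and 20 UMIs. Mast-like cells (37, 33 and 33 cells) and skeletal muscle-like cells were too few to compare, and no level of erythroid-like cells is read, because the fibroblast gene Dcn stood there at 85.4% of its fibroblast-like level at day 2 and 65.1% at day 7. Between the wounds 1 of 23 genes was called higher and 2 lower in that class, against 4.32% and 16.2% of all genes.

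Genes of the pathway around the list were counted by group, and counts of a few genes are to be read beside the shares of all genes, which at day 2 were 11.0% higher and 6.32% lower in fibroblast-like, 13.8% and 20.1% in macrophage-like, 14.2% and 6.22% in dendritic-like and 16.1% and 10.2% in lymphoid-like cells. Of 9 receptor and kinase genes, 1 was higher (Jak2) and 1 lower (Ifngr1) at day 2 in both fibroblast-like (9 tested) and macrophage-like cells (8 tested). Jak2, a kinase of the interferon-gamma receptor, went from 31.4 to 84.5 CPM in fibroblast-like, from 77.1 to 169 in macrophage-like and from 135 to 481 CPM in dendritic-like cells. Ifngr1, a chain of that receptor, went from 93.3 to 41.3 CPM (2.26-fold, 2.17 to 2.35) in fibroblast-like and from 209 to 52.7 (3.96-fold, 2.65 to 5.97) in macrophage-like cells. In dendritic-like cells 3 of 8 tested receptor and kinase genes were higher at day 2 and none lower, and in pericyte-like cells 5 of 8 were higher at day 7 (17.2% of all genes), among them Ifnar1 (11.3 to 40.1 CPM) and Ifnar2 (29.3 to 69.8 CPM). Jak2 was thus higher in all 3 classes at day 2, and Ifngr1 lower in the first and the second of them.

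Of 12 transcription factors and inhibitors, none was called in fibroblast-like cells at day 2 or day 7. In macrophage-like cells none was higher and 2 were lower in either wound, Ptpn6 and Pias1 at day 2 and Stat3 and Socs3 at day 7. That was 2 of 11 tested at day 2 and 2 of 12 at day 7, against 20.1% and 11.6% of all genes lower. Over all genes at day 7, 14.8% were higher. In dendritic-like cells 2 of 11 were higher at day 2 and 3 of 11 at day 7 (11.3% of all genes), and in lymphoid-like cells 2 of 12 were higher and 2 lower in either wound, near the share of all genes at day 2. Over all genes in lymphoid-like cells at day 7, 14.1% were higher and 3.79% lower. Irf8, which directs dendritic cell development, went from 151 to 576 CPM in dendritic-like cells at day 2. Socs1, an inhibitor of Jak kinases, went from 143 to 40.9 CPM (3.49-fold, 2.71 to 4.53, lower) in lymphoid-like cells at day 7. Of 12 nucleic acid sensors and adaptors, 2 of 9 tested were higher and 1 lower in macrophage-like cells at day 2. Ikbke and Tbk1, kinases that switch on Ifnb1, were higher in macrophage-like cells at day 2 (12.8 to 90.7 and 41.7 to 94.3 CPM), and Tmem173 (STING) was lower (54.6 to 15.9 CPM). Other counts at day 2 were 1 higher of 11 tested in fibroblast-like, 3 of 10 in dendritic-like and, with 1 lower, 5 of 9 in lymphoid-like cells. Tmem173 was higher in fibroblast-like (11.5 to 36.9 CPM) and dendritic-like cells (29.9 to 115 CPM).

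A further 37 interferon-induced genes outside the list were counted in the same way. In fibroblast-like cells 1 of 36 tested was higher and 9 lower at day 2, with a median log2 fold of -0.30, and 8 of 35 were lower at day 7, with a median of -0.43. H2-D1, a class I antigen-presenting molecule, went from 648 to 168 CPM and Ifi203 from 124 to 28.7 CPM in these cells at day 2. Over all genes in these cells 11.0% were higher and 6.32% lower at day 2 and 4.19% lower at day 7. In dendritic-like cells 11 of 34 were higher and 1 lower at day 2, against 14.2% and 6.22% of all genes, with a median of 0.89. In lymphoid-like cells 13 of 32 were higher at day 7 and none lower, against 14.1% and 3.79%, with a median of 0.63.

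In macrophage-like cells 5 of 33 of these genes were higher and 6 lower at day 2, against 13.8% and 20.1% of all genes, with a median of -0.37. At day 7, 2 of 35 were higher and 18 lower, against 14.8% and 11.6%, with a median of -1.05. Gbp5, an inflammasome-linked relative of Gbp2, went from 19.3 to 409 CPM (21.2-fold, 9.65 to 58.3) and Cd274 (PD-L1) from 48.2 to 328 CPM (6.82-fold, 4.06 to 12.3). Cmpk2, the neighbour of Rsad2 on chromosome 12, went from 25.7 to 125 CPM (4.86-fold, 2.38 to 11.6). Ifitm2 went from 1519 to 256 CPM (5.93-fold, 5.03 to 7.01, lower), as Ifitm3 did. Iigp1 went from 38.5 CPM to 0 UMIs. Gbp5 and Cd274 were also higher in dendritic-like cells at day 2, from 4.28 to 82.2 and from 57.0 to 432 CPM.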

How the data were processed

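Counts are UMIs per gene and barcode as the authors deposited them. Per the submitters' processing notes they were made with Cell Ranger 3.0.2 and Seurat 3.0 on mm10, while the matrix headers name Cell Ranger 5.0.0. Barcodes with under 200 genes or over 10% mitochondrial UMIs were removed, as were the highest Scrublet doublet scores, 0.8% of barcodes per 1000 barcodes (848, 505 and 212). Scanpy 1.11.5 clustered the rest on 2000 variable genes without the 34, with 30 components, 20 neighbours and Leiden resolution 1. A cluster was named from 16 marker lists where at least 3 markers were detected. Counts were summed per class and library. Python 3.11.15 with scipy 1.17.1 gave exact conditional binomial intervals of ratios, Poisson intervals of levels and Clopper-Pearson intervals of shares. Counts scaled with TMM used edgeR 4.0.16 in R 4.3.3, for factors only. The fold rule was tested on simulated data, which did not cover the intervals.

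The genes and lists were chosen with earlier results of these data known. The rule for naming genes gave full values to called genes at 20 CPM or more, at most 6 per direction, class and pair, and to Isg15, Ifit3, Irf7, Ifitm3, Bst2, Cxcl9, Cxcl10, Irf1, Psmb8 and Ifnb1 in each class. Pathway genes were limited to 3 per list and direction. Changed after the clusters were seen were the score needed for a name (0.5), the added CPM for ranking leading genes (5), which named the Foxp3 cluster, and the score for classes per cell (0.2). Also chosen after values were seen were the Ifnb1 split, the source genes of free RNA, the promoters printed and the 2 alternatives on clusters.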

Additional observations from a re-analysis of the deposited data

Results flagged for a closer look

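The same gene was called higher in one class and lower in another under the same comparison in 15 cases (6 at day 2 and 7 at day 7 against non-lesional skin, 2 between the wounds). The differences between classes, given below as differences of log2 folds, were not tested, because each group had 1 library.

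Ifi27l2a differed most. Its log2 fold was 4.89 greater in lymphoid-like than in fibroblast-like cells at day 2, 6.70 greater in lymphoid-like than in macrophage-like cells at day 7, and 2.23 greater in that same pair of classes between day 7 and day 2. Ifitm3 was 3.06 greater in dendritic-like than in macrophage-like cells at day 2. At day 7 it was 3.85 greater in lymphoid-like than in macrophage-like cells, where the lymphoid-like level was close to what free fibroblast RNA could bring.

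Against fibroblast-like cells at day 2, the log2 folds of dendritic-like cells were 3.75 greater for Usp18, 3.37 for Gbp2 and 3.01 for Irf1. Against macrophage-like cells, Psmb9 was 3.64 greater at day 2 and 2.87 greater at day 7 in lymphoid-like cells. Irf7 at day 7 was 3.35 greater in dendritic-like cells than in macrophage-like cells, and Bst2 and Psmb8 at day 7 were 3.42 and 2.92 greater in pericyte-like cells. With the shared macrophage cluster alone, the macrophage-like log2 folds were 0.57 for Irf7 at day 7, and -0.06 and 0.44 for Psmb9 at day 2 and day 7. The lower calls behind these cases were then not kept. Nor was that of Bst2, whose level in the non-lesional cells of that cluster lay below both wound levels. Xaf1 at day 7 was 2.46 greater in pericyte-like than in Schwann-like cells. Rsad2 between day 7 and day 2 was 2.57 greater in lymphoid-like than in dendritic-like cells. The counting interval of that lymphoid-like ratio included equal levels, and free macrophage RNA could bring part of the day 7 level.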

How the results depend on the processing

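No paired analysis was possible because each group has 1 library, and for the same reason no library could be left out. TMM, median-of-ratios scaling, the added CPM and the UMI minimum do not apply to levels. Of the alternatives for the main counts, 75 of higher genes and 70 of lower genes stayed within 1.5 times the count reported, and 12 and 17 moved; the cause was not tested. For folds of named genes, 672 differed from the reported fold by no more than the reach of its counting interval to one side, 162 by more with the same sign, and 9 reversed.

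With 1 CPM added, the fibroblast-like counts were 3 higher at day 2, and 3 higher and 5 lower at day 7, and 5 neutrophil-like genes were lower. TMM gave 7 lower genes in fibroblast-like cells at day 7, 5 in neutrophil-like cells and 2 in lymphoid-like cells at day 2. Median-of-ratios scaling gave 7 and 2 for the first and the last of these and 10 higher genes in lymphoid-like cells at day 7. Classes assigned per cell gave 2 higher genes in fibroblast-like cells at day 2 and 2 at day 7. The same setting gave 4 lower at day 2 and 10 higher at day 7 in macrophage-like cells, 1 lower in neutrophil-like cells, and 10 higher and 2 lower in dendritic-like cells at day 2. Thinning gave 11 higher in macrophage-like cells at day 7, 5 lower and 1 higher in neutrophil-like cells, 15 higher in dendritic-like and 2 lower in lymphoid-like cells at day 2. With the 34 genes kept in clustering 0 were higher in neutrophil-like cells, and Ifit1 and Rsad2 reversed there to log2 folds of -0.56 and -0.37.

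The largest wound cluster alone, resting on 26 non-lesional cells, gave 3 lower at day 2 and 11 higher and 5 lower at day 7 in macrophage-like cells. There Ifi44 reversed to 0.79 at day 2 and 0.20 at day 7, Irf7 to 0.57 and Psmb9 to 0.44 at day 7. Thinning reversed Oas3 between the wounds to 0.0082. In lymphoid-like cells at day 2, 2 were lower with a minimum of 500 genes or without the Foxp3 cluster, and 0 without doublet removal, where Bst2 reversed to 0.24 and, between the wounds, to -0.17.

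Of the calls at day 2 in dendritic-like cells 10 of 24 were kept with classes per cell, and of those in neutrophil-like cells 3 of 6. Of the calls in other comparisons, 1 of 2 was kept without doublet removal and 0 of 2 with classes per cell in dendritic-like cells between the wounds, 4 of 7 with classes per cell and 3 of 7 after thinning in lymphoid-like cells between the wounds, and 4 of 7 without doublet removal and 2 of 7 after thinning in Schwann-like cells.

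The median log2 fold of all genes moved by over 0.1 with TMM in lymphoid-like cells (by -0.36 at day 2 and -0.26 at day 7), in macrophage-like cells (by 0.32, 0.14 and, between the wounds, -0.11), in fibroblast-like cells at day 7 (by -0.11), in neutrophil-like cells (by -0.24), in pericyte-like cells (by -0.16) and in erythroid-like cells (by 0.35).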
